A study of Mus musculus with 2 samples.

Results

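The type I interferon response genes are 35 genes that cells switch on after type I interferon binds its receptor, and they were taken as a list of gene symbols. Of these, 34 had a row among the 32285 genes of both count tables, and Mx1 was not analysed here. They were described gene by gene and as a sum across the immune cell types of neonatal mouse skin. The 2 groups were wild type C57BL/6 mice given either an isotype control antibody or the anti-Gr-1 antibody, every other day from postnatal day 4 to 14, with skin taken at day 15. The design text states that anti-Gr-1 served to deplete monocytes. Live CD45+ cells (CD45 marks immune cells) were sorted from collagenase-digested skin and sequenced by the 10x 3′ method. Each group was 1 library made from a pool of 4 to 7 mice, so no difference between the groups could be tested. All intervals below are 95% intervals of counting error only: they cover neither mouse-to-mouse nor library-to-library variation.

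Type I interferons (the alpha family and interferon beta) are secreted proteins that signal through the receptor of Ifnar1 and Ifnar2. The receptor's kinases activate a transcription factor complex that includes STAT2 and IRF9, which binds the interferon-stimulated response element in DNA and turns on antiviral genes, among them Irf7, which feeds back on interferon production. In skin, resident macrophages, dendritic cells and incoming monocytes can respond, as can T cells and mast cells.

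The response element was looked for in the members' promoters, since this is a feature the choice of genes did not use. Its core, GAAA followed by any 2 bases and a further GAAA, was searched on both strands (TTTC, any 2 bases, TTTC on the other) in the 300 bases from 250 before to 50 after the start site, taken from RefSeq on build GRCm38.p6. Of the 34 members, 27 had a promoter there and 14 of these (51.9%) held the core, against 1079 of 27025 genes (3.99%). The promoters of Isg15, Rsad2, Ifit1 and Ifit3 are shown because these genes carry the patterns in single cells described below, and that of Bst2 because its level was broad across classes. Capitals mark the core, and in Isg15 and Bst2 neighbouring matches overlap and form 1 run. The sequences lie at chr4:156200769-156201068 (minus strand, Isg15), chr12:26456403-26456702 (minus, Rsad2), chr19:34640639-34640938 (plus, Ifit1), chr19:34583279-34583578 (plus, Ifit3) and chr8:71537423-71537722 (minus, Bst2).
Isg15: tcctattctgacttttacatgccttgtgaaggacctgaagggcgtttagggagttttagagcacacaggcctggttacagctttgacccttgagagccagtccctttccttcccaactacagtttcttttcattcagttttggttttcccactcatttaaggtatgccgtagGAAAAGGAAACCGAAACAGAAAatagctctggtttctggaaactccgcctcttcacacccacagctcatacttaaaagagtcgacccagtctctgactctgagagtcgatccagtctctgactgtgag
Rsad2: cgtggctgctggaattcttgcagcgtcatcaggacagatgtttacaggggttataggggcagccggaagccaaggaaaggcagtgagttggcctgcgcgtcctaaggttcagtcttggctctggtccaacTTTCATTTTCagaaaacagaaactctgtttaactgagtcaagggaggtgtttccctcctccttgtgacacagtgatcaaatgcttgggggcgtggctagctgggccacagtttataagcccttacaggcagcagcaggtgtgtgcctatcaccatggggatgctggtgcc
Ifit1: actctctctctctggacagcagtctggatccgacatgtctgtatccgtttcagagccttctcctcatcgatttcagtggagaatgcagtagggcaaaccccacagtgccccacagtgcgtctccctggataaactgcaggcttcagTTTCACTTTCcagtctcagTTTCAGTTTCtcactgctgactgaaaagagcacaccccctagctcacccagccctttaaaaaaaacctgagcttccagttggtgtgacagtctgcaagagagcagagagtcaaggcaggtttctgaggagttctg
Ifit3: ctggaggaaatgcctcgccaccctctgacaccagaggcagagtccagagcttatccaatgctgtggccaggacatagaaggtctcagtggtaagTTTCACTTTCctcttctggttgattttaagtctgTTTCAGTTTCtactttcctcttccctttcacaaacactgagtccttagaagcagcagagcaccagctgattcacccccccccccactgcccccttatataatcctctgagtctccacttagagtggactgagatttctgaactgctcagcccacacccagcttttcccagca
Bst2: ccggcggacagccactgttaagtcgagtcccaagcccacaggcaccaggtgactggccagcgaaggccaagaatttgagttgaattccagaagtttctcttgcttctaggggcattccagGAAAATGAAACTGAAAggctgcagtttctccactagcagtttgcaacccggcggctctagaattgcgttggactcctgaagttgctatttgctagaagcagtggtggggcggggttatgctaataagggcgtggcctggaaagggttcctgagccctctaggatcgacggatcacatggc

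Isg15 held 3 overlapping matches, beginning 78, 72 and 66 bases before the start site. Ifit1 held 2 separate ones, beginning at 104 and 85 bases before it. The other members with a match were Stat2, Ifih1, Ddx58, Eif2ak2, Oas1a, Oas3, Ifitm3, Slfn5 and Trim30a. No match was in the window of Irf7, Irf9, Ifit2, Oasl1, Oasl2, Herc6, Cmpk2, Isg20, Ifi47, Phf11d, Xaf1, Ifi44 or Ifi35. A match describes these letters only and shows no binding.

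The isotype control library held 21311 cell barcodes with 125253392 unique molecular identifiers (UMIs, 1 count per captured RNA molecule), and the anti-Gr-1 library 9110 barcodes with 85142470. After filters and removal of likely doublets, 16487 and 7599 cells remained, with a median of 5073 and 7910 UMIs per cell. Both libraries shared 61 barcode sequences. Cells were placed in classes by how many markers of a class they had. No gate was met by 35.7% of isotype control cells and 20.6% of anti-Gr-1 cells. A further 4.37% and 2.01% were set aside for markers of more than 1 lineage. The pools also differed in sex: 34.7% against 19.0% of cells had Xist without Y-linked UMIs, and 32.6% against 57.4% the reverse. Classical monocyte-like cells numbered 192 among isotype control cells (1.16% of kept cells) and 17 among anti-Gr-1 cells (0.224%).

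Monocyte-like cells had the highest summed interferon gene level. In the isotype control library the 34 genes together reached 6627 CPM (counts per 1000000 UMIs of the class) in classical monocyte-like cells. Non-classical monocyte-like cells followed at 3979 CPM (103 cells) and neutrophil-like cells at 2716 CPM (107 cells). In the non-classical monocyte-like cells Ifitm3 alone gave 1761 of the 2863 member UMIs, so their place rests largely on 1 gene. Macrophage-like cells had 1947 CPM, regulatory T-like cells 1202 CPM and phagocytes marked by Retnla, Lpl and Fn1 1093 CPM. Type 2 dendritic-like cells (854 CPM), type 1 dendritic-like cells (828 CPM), mature dendritic-like cells (817 CPM), Langerhans-like cells (606 CPM) and dendritic epidermal T-like cells (624 CPM) lay lower. Mast cell-like cells (404 CPM), gamma-delta type 17 T-like cells (401 CPM), group 2 innate lymphoid-like cells (383 CPM) and lymphoid cells marked by Hlf, Bmp2 and Rora (350 CPM) were at the bottom. The order at the bottom is not firm, since the counting intervals of mast cell-like, gamma-delta type 17 T-like and group 2 innate lymphoid-like cells overlapped.

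**Figure D1:**
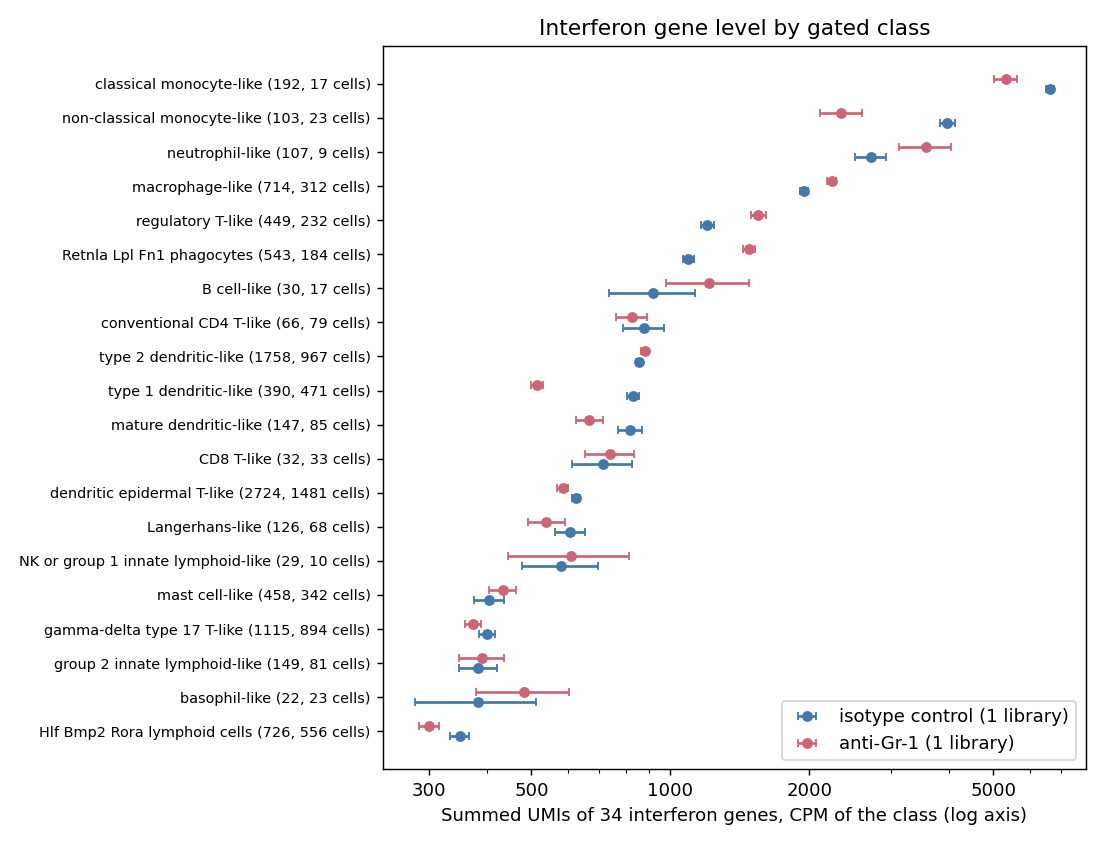
Summed level of the 34 interferon genes in CPM of each gated class (log axis), with exact Poisson intervals, in the isotype control (blue) and anti-Gr-1 (red) library; cell numbers follow each name. Classical monocyte-like cells were highest in both libraries, at 6627 and 5319 CPM, and type 1 dendritic-like cells show the widest gap among classes with at least 100 cells in each library, at 828 and 514 CPM.

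By gene, 25 of the 33 members with enough UMIs had their highest isotype control level in classical monocyte-like cells. Another 6 (Ddx58, Oas2, Oas3, Oasl2, Isg20 and Trim30a) were highest in neutrophil-like cells, from 10 UMIs for Oas2, 7 of them in 1 cell, to 76 UMIs for Trim30a, and 2 cells held 26.2% of that class's member UMIs. Of the rest, Ifitm3 was highest in non-classical monocyte-like cells and Usp18, which removes ISG15 from proteins, in mature dendritic-like cells. Rsad2, which makes an antiviral nucleotide, had 544 CPM in classical monocyte-like cells and 23.4 CPM in macrophage-like cells. Isg15, a ubiquitin-like protein attached to other proteins, had 381 and 35.02 CPM in the same classes. Irf7 had 196 and 21.7 CPM. Ifitm3, a membrane protein that blocks virus entry, was spread differently, at 2041 CPM in classical monocyte-like, 2448 CPM in non-classical monocyte-like and 470 CPM in macrophage-like cells. In the anti-Gr-1 library only 17 classical monocyte-like, 23 non-classical monocyte-like and 9 neutrophil-like cells were left, and among its classes with at least 100 cells 23 of 33 members were highest in macrophage-like cells. The gate for classical monocyte-like cells uses Ly6c2 and Plac8, themselves known to respond to interferon; a gate of 3 of the other 5 markers gave 176 isotype control cells at 5342 CPM.

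**Figure D2:**
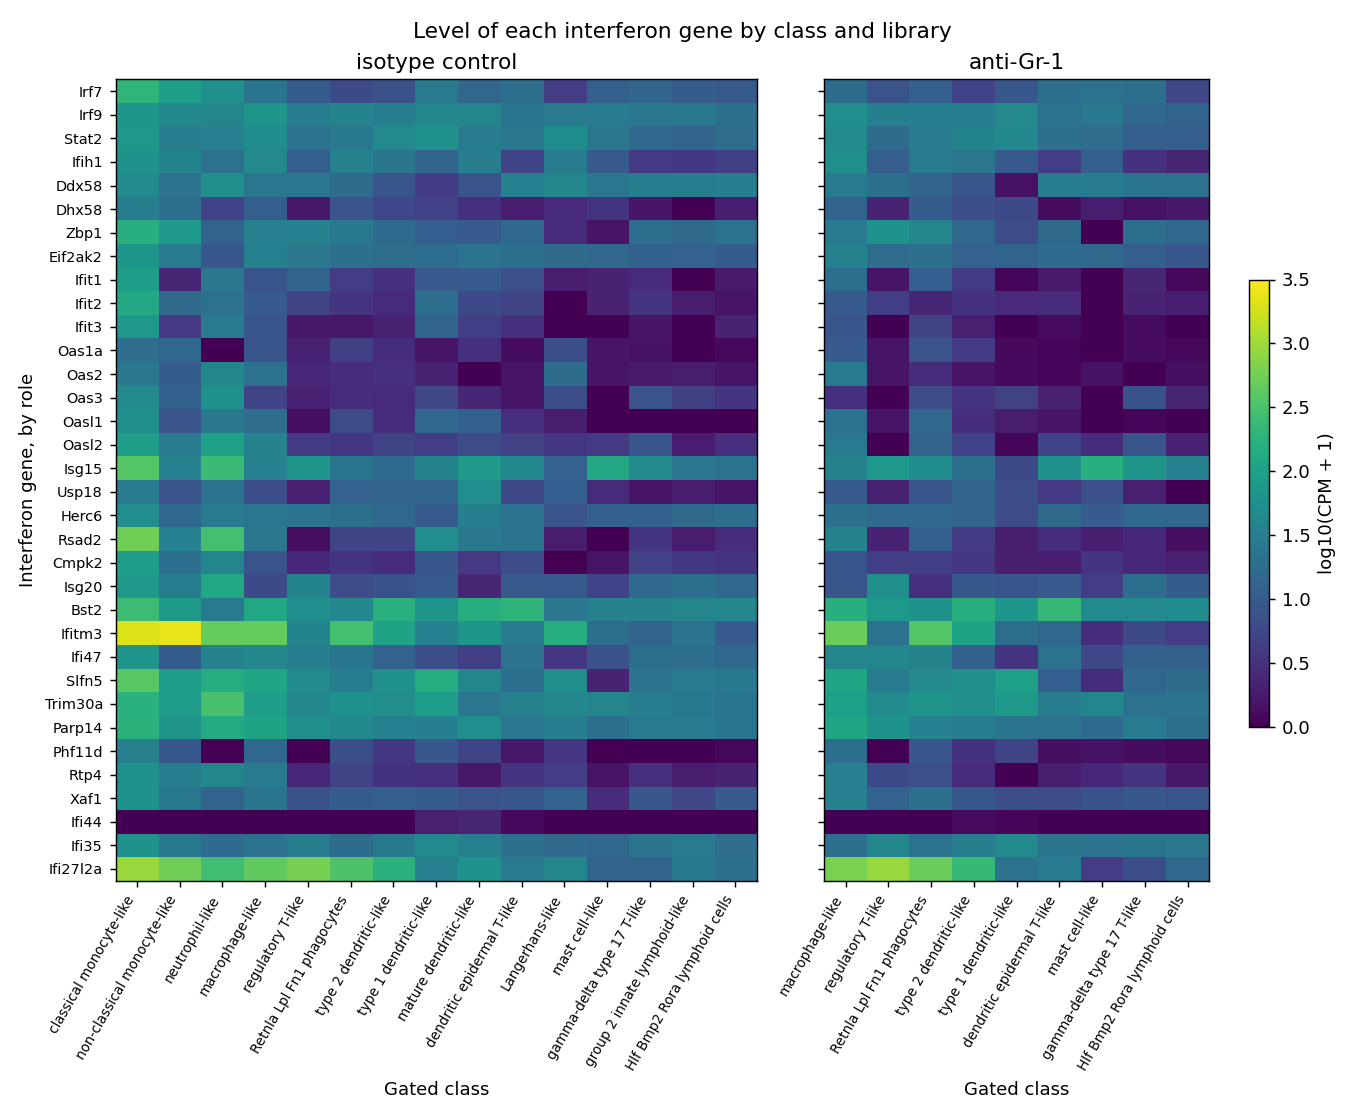
Level of each of the 34 interferon genes as log10(CPM + 1) (colour) in each gated class with at least 100 cells, ordered by role down the side, isotype control left and anti-Gr-1 right. The first column, classical monocyte-like cells, is brightest for most genes (Rsad2 at 544 CPM, Isg15 at 381 CPM), while Ifi27l2a, Ifitm3 and Bst2 are bright in further classes.

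Not every monocyte-like cell was rich in these genes. With each cell thinned to 1000 UMIs, so that depth was equal, 40 of 190 isotype control classical monocyte-like cells (21.1%, exact Clopper-Pearson interval 15.5 to 27.5%) had at least 5 of the 34 genes. The next class with at least 100 cells, neutrophil-like cells, had 7.29% (7 of the 96 cells deep enough to thin, 2.98 to 14.4%). In the anti-Gr-1 library 1 of 17 classical monocyte-like cells and 2 of 9 neutrophil-like cells had at least 5. Macrophage-like cells had 28 of 708 (3.95%, 2.64 to 5.67%) and 14 of 312 (4.49%, 2.47 to 7.41%), with overlapping intervals. Over all kept cells the share was 1.28% of isotype control cells (193 of 15026) and 0.605% of anti-Gr-1 cells (45 of 7440); without thinning it was 21.3% and 27.1%, the reverse order. Of the 193 isotype control cells, 61 met no gate, and 21 of these had at least 3 of the 7 classical monocyte markers.

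**Figure D3:**
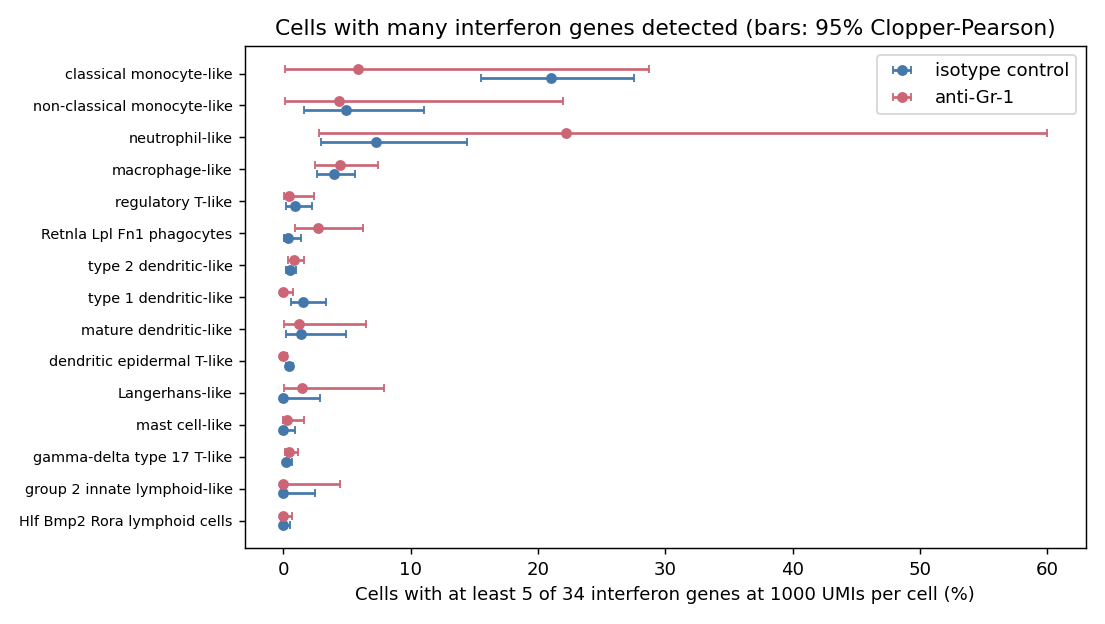
Share of cells (%) with at least 5 of the 34 interferon genes detected after thinning each cell to 1000 UMIs, by class and library, with 95% Clopper-Pearson intervals. Isotype control classical monocyte-like cells stand at 21.1%, and type 1 dendritic-like and dendritic epidermal T-like cells show 0 in the anti-Gr-1 library.

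Over all kept cells the members summed to 996 CPM (isotype control) and 785 CPM (anti-Gr-1), a ratio of 0.789 (0.781 to 0.797). The libraries differ in which classes they hold. Over the 9 classes with at least 100 cells in each library, the levels were 825 and 775 CPM. With the isotype control's share of each class, the anti-Gr-1 levels gave 860 CPM; with the anti-Gr-1 shares, the isotype control levels gave 780 CPM. The direction of the library-wide difference among these classes thus depended on the class shares used.

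Within classes the ratio of summed level, anti-Gr-1 over isotype control, ran both ways. It was above 1 in phagocytes marked by Retnla, Lpl and Fn1 (1.36, 1.30 to 1.41), regulatory T-like cells (1.29, 1.22 to 1.36), macrophage-like cells (1.15, 1.11 to 1.18) and type 2 dendritic-like cells (1.03, 1.01 to 1.05). It was below 1 in type 1 dendritic-like cells (0.621, 0.595 to 0.648), Hlf Bmp2 Rora lymphoid cells (0.859, 0.803 to 0.920), gamma-delta type 17 T-like cells (0.931, 0.881 to 0.985) and dendritic epidermal T-like cells (0.936, 0.906 to 0.968). The interval for mast cell-like cells included 1 (1.07, 0.97 to 1.18). For single genes, log2 ratios were taken on log2(CPM + 5) where both libraries together gave at least 20 UMIs, which understates the change of low genes, and a difference of 1.5-fold on that scale is what is counted below.

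**Figure D4:**
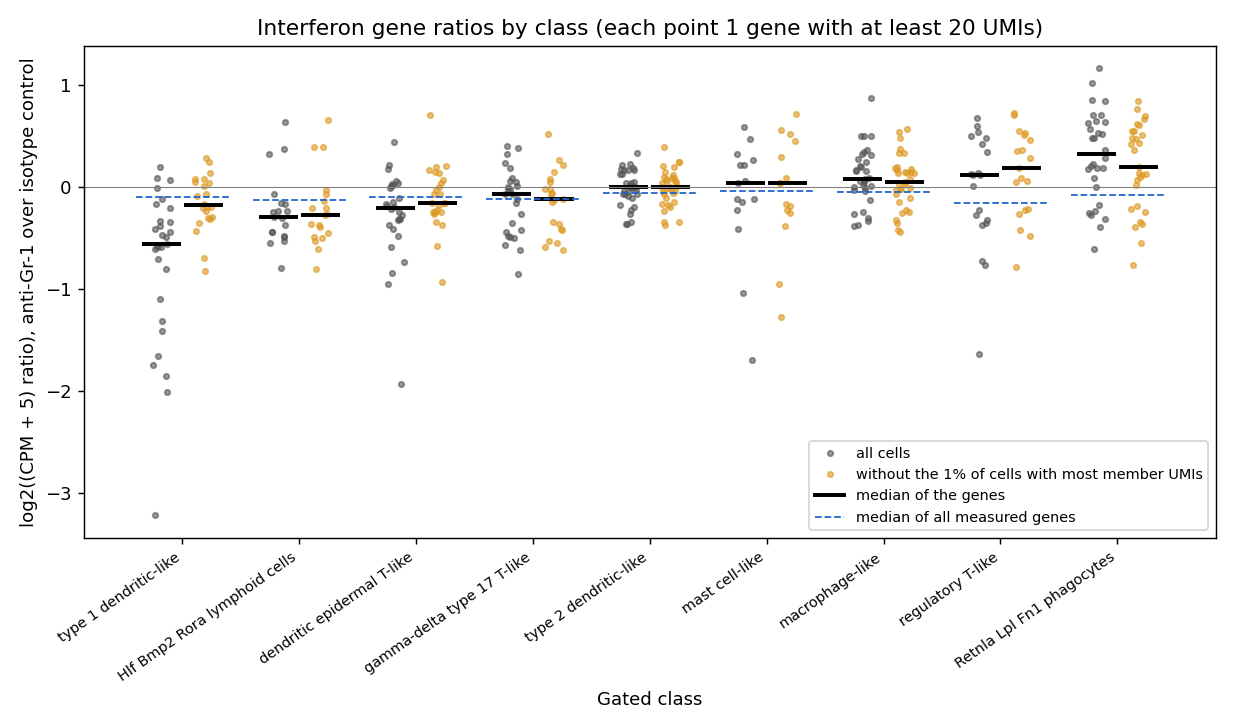
Each point is 1 interferon gene in 1 class, as log2 of the (CPM + 5) ratio, anti-Gr-1 over isotype control. Grey points use all cells, and orange points leave out the 1% of cells with the most member UMIs. Black bars are the genes' medians, and dashed lines the median of all measured genes with all cells. In type 1 dendritic-like cells the median is -0.56 with all cells and -0.18 without those cells.

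Type 1 dendritic-like cells, which cross-present antigen to CD8 T cells, numbered 390 (isotype control) and 471 (anti-Gr-1). Of 29 measured members, 13 were at least 1.5-fold lower in anti-Gr-1, where 2.17% of all 10384 measured genes were, and 0 were higher (0.25% of all genes). The median log2 ratio was -0.56, against -0.10 over all genes. Rsad2 had 252 UMIs from 7 cells in the isotype control, 50.6 CPM, and 8 UMIs from 3 cells in anti-Gr-1, 0.972 CPM. Isg15 had 35.3 CPM (176 UMIs, 19 cells) against 4.98 CPM (41 UMIs, 21 cells). The 2 libraries thus had a similar number of cells with an Isg15 UMI. Ifit3, one of the IFIT proteins that bind foreign RNA, had 65 UMIs in 6 cells against 0. Members with broader expression differed less: Slfn5 had 145 and 94.8 CPM, Trim30a 89.4 and 76.6 CPM, and Bst2, which tethers budding virus to the cell, 63.7 and 67.9 CPM.

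Much of that difference sat in a few cells. A single isotype control type 1 dendritic-like cell held 760 of the class's 4125 member UMIs (18.4%), with 32 of the 34 genes detected, and the 4 richest cells held 33.7%. It held 211 of the 252 Rsad2 UMIs and 109 of the 176 Isg15 UMIs. It had all 6 type 1 dendritic markers, and also 5 of the 7 classical monocyte markers. The richest anti-Gr-1 cell of the class held 87 UMIs, or 2.06% of them. Without the 1% of cells richest in member UMIs in each library, the ratio of summed level was 0.867, 2 of 22 members were 1.5-fold lower and the Rsad2 log2 ratio went from -3.22 to -0.27. The 2 were Ifitm3, whose log2 ratio stayed near its value with all cells (-0.81 and -0.83), and Isg15 (-2.02 and -0.70). Shares and medians over all genes without the richest 1% are not given, here or for the classes below. Counts and medians without those cells therefore have no background beside them. At 1000 UMIs per cell, 6 of 390 isotype control cells (1.54%, 0.567 to 3.32%) and 0 of 471 anti-Gr-1 cells had at least 5 members. The 0 allows a share of up to 0.637% by the floor of 3 counts. Its Clopper-Pearson interval, 0 to 0.780%, overlaps that of the isotype control.

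Dendritic epidermal T-like cells, the gamma-delta T cells resident in mouse epidermis, showed the same concentration. Of 28 members, 5 were at least 1.5-fold lower in anti-Gr-1 (2.95% of all measured genes) and 0 higher (0.138%), with a median log2 ratio of -0.21 against -0.10 over all genes. In the isotype control 1 cell out of 2724 held 823 of 8573 member UMIs (9.60%), including 257 of 294 Rsad2 and 63 of 85 Ifit1 UMIs. That cell had 14883 UMIs where the class median was 4654, all 3 T cell markers and 6 of the 7 classical monocyte markers. Without the richest 1% the summed ratio was 1.01 in place of 0.936, and of 25 members 1 was 1.5-fold lower (Ifitm3) and 1 higher (Isg15). At 1000 UMIs 11 of 2670 isotype control cells (0.412%) and 0 of 1478 anti-Gr-1 cells (up to 0.203% by the floor of 3 counts) had at least 5 members. The Clopper-Pearson intervals, 0.206 to 0.736% and 0 to 0.249%, overlap. The part of monocyte RNA in these cells was not tested.

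**Figure D5:**
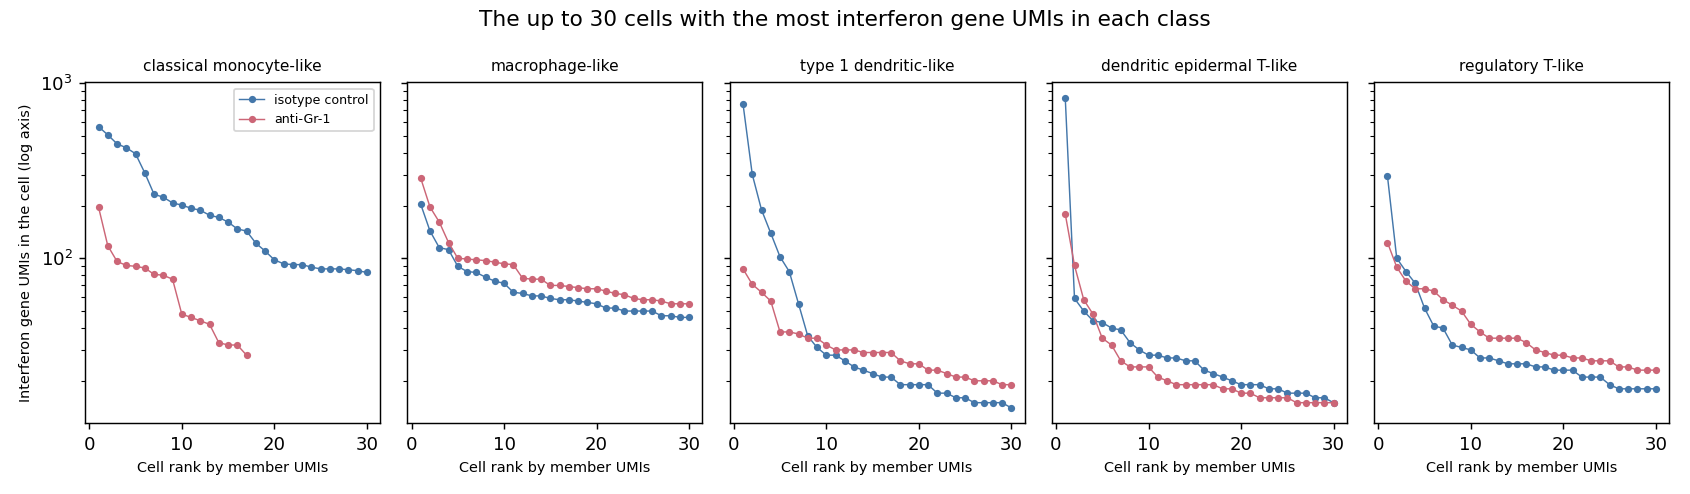
Interferon gene UMIs (log axis) in the up to 30 richest cells of 5 classes, ranked, for the isotype control (blue) and anti-Gr-1 (red) library. In type 1 dendritic-like and dendritic epidermal T-like cells the first isotype control cells lie far above the rest, at 760 and 823 UMIs, against 87 and 179 UMIs for the richest anti-Gr-1 cells.

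In dendritic epidermal T-like cells the 2 members with the highest level went the other way. Bst2 had 189 CPM (181 to 196) in the isotype control and 220 CPM (211 to 230) in anti-Gr-1, in 1305 of 2724 and 928 of 1481 cells. Isg15 had 41.6 and 58.4 CPM, and without the richest 1% of cells its log2 ratio was 0.71 in place of 0.44. Ifitm3 had 26.9 and 14.2 CPM and Slfn5, of the Schlafen family, 18.0 and 10.3 CPM. The 7 classical monocyte markers, which are not T cell genes, summed to 116 CPM and 43.0 CPM in this class (7 of 7 and 6 of 7 detected, Chil3 at 0 in anti-Gr-1). Their part in the Ifitm3 difference was not tested.

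Macrophage-like cells (714 and 312) differed little as a list: 1 of 33 members was at least 1.5-fold higher in anti-Gr-1 (0.776% of all measured genes), 0 were lower (2.38%), and the median log2 ratio was 0.08 against -0.05 over all genes. Ifi27l2a, an interferon-inducible gene of the Ifi27 family, had 442 CPM (424 to 461) in the isotype control and 626 CPM (600 to 653) in anti-Gr-1, where it was the highest member. Without it the summed ratio was 1.07. Ifitm3, the highest in the isotype control, had 470 and 501 CPM, and Bst2 122 and 153 CPM. Ifit1 was the member past 1.5-fold, with 37 UMIs in 21 cells against 58 UMIs in 18 cells. One anti-Gr-1 cell held 23 of those 58 UMIs, and without the richest 1% the log2 ratio of Ifit1 was 0.57 in place of 0.88. Rsad2 had 23.4 and 35.2 CPM, but its log2 ratio went from 0.50 to -0.43 without the richest 1%. The transcription factors Irf7 (21.7 and 16.1 CPM) and Irf9 (64.0 and 51.0 CPM) and Oasl2 (36.2 and 26.8 CPM) were lower in anti-Gr-1. Split by sex, Irf7 had 26.4 and 7.10 CPM in cells called female (43 and 4 UMIs). In cells called male it had 13.8 and 21.8 CPM. The Irf9 log2 ratio was 0.12 in female and -0.25 in male cells, while Oasl2 was lower in both. Ifit1 had 22 UMIs against 1 in female cells and 7 against 52 in male cells. The median was -0.18 over cells called female and 0.25 over cells called male, while the summed ratio was above 1 in both, at 1.12 (1.04 to 1.19) and 1.16 (1.11 to 1.21).

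Phagocytes marked by Retnla, Lpl and Fn1 (543 and 184 cells) had the largest share of higher members. Of 30 measured, 9 were at least 1.5-fold higher in anti-Gr-1 (0.593% of all measured genes) and 1 was lower (4.15%), with a median log2 ratio of 0.32 against -0.07 over all genes. Ifi27l2a had 328 and 508 CPM and Ifitm3 286 and 369 CPM. Isg15 had 22.0 CPM (99 UMIs, 57 cells) and 49.8 CPM (143 UMIs, 39 cells), and Oasl2 2.67 and 12.2 CPM. Oasl1, which holds back Irf7 translation, had 5.57 and 13.9 CPM, Ifit1 3.34 and 10.1 CPM and Xaf1 9.35 and 18.4 CPM. The lower one was Isg20, an RNA exonuclease, with 26 UMIs (5.79 CPM) against 6 UMIs (2.09 CPM). A single anti-Gr-1 cell held 33 of the 143 Isg15 UMIs. Without the richest 1% the median was 0.19, with 6 of 29 members higher, and no share over all genes was set beside this count. The share of cells with at least 5 members at 1000 UMIs was 0.387% (2 of 517, 0.0469 to 1.39%) and 2.72% (5 of 184, 0.888 to 6.23%), and these intervals overlap. Median UMIs per cell in this class were 8136 and 15204.5, the largest relative gap in depth among the compared classes, and after thinning all cells before gating the summed ratio was 1.20.

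Regulatory T-like cells (449 and 232), which restrain immune responses through Foxp3, owed their summed ratio mostly to 1 gene. Ifi27l2a held 1697 of 3391 member UMIs in the isotype control and 1589 of 2695 in anti-Gr-1, at 602 CPM (573 to 631) and 913 CPM (869 to 959), the highest Ifi27l2a level of any compared class in each library. It was found in 323 of 449 and 190 of 232 cells. Without it the ratio was 1.06 in place of 1.29. Of 20 measured members 2 were at least 1.5-fold higher (1.47% of all measured genes) and 3 lower (9.75%), with a median of 0.12 against -0.16 over all genes. The other higher member was Zbp1, a sensor of Z-form nucleic acid, at 35.1 and 59.2 CPM, while Isg20 had 37.2 and 54.6 CPM. The lower ones were Ifit1 (35 UMIs against 1, with 31 of the 35 in 1 cell), Ifitm3 (36.9 and 19.5 CPM) and Slfn5 (47.9 and 27.0 CPM). Without the richest 1% of cells Slfn5 alone stayed 1.5-fold lower, and the log2 ratio of Ifitm3 turned from -0.77 to 0.06. In the isotype control 1 cell held 280 of the Ifi27l2a UMIs, and without the richest 1% the summed ratio was 1.39. The ratio was 1.58 in cells called female and 1.48 in cells called male, both larger than over all cells. Neutrophil markers in this class summed to 454 UMIs in the isotype control, of which 398 lay in 1 cell, and to 7 UMIs in anti-Gr-1. Their part in the result was not tested.

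Type 2 dendritic-like cells, antigen-presenting cells that prime CD4 T cells, were the largest myeloid class (1758 and 967 cells), and 0 of 33 members passed 1.5-fold either way (0.0822% of all measured genes higher and 0.428% lower). The median was -0.01 against -0.06 over all genes. Ifi27l2a had 171 CPM (166 to 177) and 217 CPM (210 to 225), Bst2 166 and 158 CPM, and Ifitm3 102 and 104 CPM. Lower in anti-Gr-1 were Eif2ak2, the kinase that stops translation on sensing double-stranded RNA (16.6 and 11.8 CPM), Stat2 (43.4 and 36.4 CPM) and Oas2, at 42 UMIs against 8. Without Ifi27l2a the summed ratio was 0.97, below 1.

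Gamma-delta type 17 T-like cells (1115 and 894), a source of interleukin 17 in skin, had 0 of 26 members at least 1.5-fold higher (0.394% of all measured genes) and 2 lower (2.63%), with a median of -0.07 against -0.12 over all genes. The lower ones were Ifitm3 (12.9 and 4.92 CPM) and Ifi27l2a (11.9 and 6.00 CPM), both of which had low levels here. Without the richest 1% of cells their log2 ratios went from -0.86 to -0.34 and from -0.62 to -0.42, no longer 1.5-fold, while Irf9 (-0.62) and Trim30a (-0.59) were then past it. Isg15 (47.6 and 63.5 CPM), Bst2 (36.1 and 46.4 CPM) and Irf7 (12.9 and 18.8 CPM) were higher in anti-Gr-1, and the RNA sensor Ddx58 (31.3 and 20.9 CPM), Trim30a (29.6 and 19.4 CPM) and Irf9 (23.4 and 14.1 CPM) lower.

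Hlf Bmp2 Rora lymphoid cells (726 and 556) had 1 of 19 members higher (0.573% of all measured genes) and 1 lower (3.36%), with a median of -0.29 against -0.13. The higher one was Isg15, at 20.6 CPM (104 UMIs, 66 cells) and 34.9 CPM (186 UMIs, 100 cells). The lower one was Ifitm3, at 9.52 and 3.38 CPM, joined by Ifi27l2a (log2 ratio -0.23 with all cells and -0.61) without the richest 1%. Ifi35 had 16.9 and 23.3 CPM, and Ddx58, Irf7, Slfn5 and Stat2 were lower, Irf7 at 8.72 and 4.51 CPM. No cell of this class had 5 members at 1000 UMIs in either library (0 of 721, up to 0.416%, and 0 of 556, up to 0.540%).

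Mast cell-like cells (458 and 342) had 0 of 15 members higher (2% of all measured genes) and 2 lower (5%), with a median of 0.04 against -0.04. Their Isg15 level was the highest of the compared classes in each library, at 127 CPM (111 to 145) and 154 CPM (138 to 172), though it came from 41 and 56 cells and 1 isotype control cell held 65 of the 220 UMIs. Without the richest 1% its log2 ratio was 0.72 in place of 0.27, past 1.5-fold. The lower members were Ifitm3 (30 UMIs against 4) and Ifi27l2a (21 against 7). Classical monocyte markers in this class summed to 44.5 and 21.8 CPM, with Ly6c2 and Chil3 among those at 0 in anti-Gr-1. The ratio of summed level was 0.750 (0.604 to 0.927) in cells called female and 1.26 (1.10 to 1.46) in cells called male.

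Of 15 members measured in all 9 classes, 3 were higher in anti-Gr-1 in at least 7 classes, 5 were lower in at least 7 and 7 lay between. Of all measured genes, 55.8 to 69.5% were lower in anti-Gr-1, depending on the class, so lower was the more common direction in each class. The number of all genes lower or higher in at least 7 classes was not counted, so these tallies have no background beside them. Isg15 was higher in anti-Gr-1 in 8 of 9 classes, with the ratio's interval above 1 in 6 of them, and lower in type 1 dendritic-like cells. Bst2 was also higher in 8 of 9, with 6 intervals above 1, and slightly lower in type 2 dendritic-like cells. Ifi35 was higher in 7 of 9, with 3 intervals above 1. Going the other way, Stat2 was lower in 8 of 9, with 5 intervals below 1. Herc6, the mouse ligase that attaches ISG15, was lower in 8 of 9 with 2. Irf9 was lower in 7 of 9 with 3, and Eif2ak2 in 7 of 9 with 2. Ifi47 was lower in 7 of 9, with 2 intervals below 1 and 1 above. Slfn5 was lower in 6 of 8, with 5 intervals below 1. Ifitm3 was lower in 6 of 9 classes, each with an interval below 1, though without the richest 1% of cells it turned in regulatory T-like cells and went from -0.86 to -0.34 on the log2 scale in gamma-delta type 17 T-like cells. Ifi27l2a was higher in 5 of 9 and lower in 4. The classes come from the same 2 libraries, so they are not independent repeats of the comparison, and each class's median over all genes lay below 0, between -0.16 and -0.04.

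By role, the 3 transcription factors summed lower in anti-Gr-1 in 8 of the 9 classes, from a ratio of 0.624 (0.503 to 0.772) in Hlf Bmp2 Rora lymphoid cells to 1.04 (0.867 to 1.25) in Retnla Lpl Fn1 phagocytes. The 3 IFIT genes spread the widest. Their ratio was 0.0465 (0.0256 to 0.0787) in type 1 dendritic-like cells and 0.216 (0.139 to 0.326) in dendritic epidermal T-like cells, and 2.43 (1.49 to 4.01) in Retnla Lpl Fn1 phagocytes. The first 2 rest on few cells: without the richest 1% of cells, IFIT UMIs went from 195 against 15 to 14 against 12 in type 1 dendritic-like cells, and from 171 against 27 to 30 against 15 in dendritic epidermal T-like cells. In the isotype control the IFIT level was 290 CPM in classical monocyte-like, 72.0 CPM in neutrophil-like (18 UMIs), 39.2 CPM in type 1 dendritic-like, 23.6 CPM in macrophage-like, 19.5 CPM in non-classical monocyte-like and 5.07 CPM in type 2 dendritic-like cells. The 5 OAS genes, whose proteins make the activator of RNase L, had a ratio of 2.63 (1.93 to 3.59) in the phagocytes. Their ratio was 0.996 (0.853 to 1.16) in macrophage-like cells and 0.230 (0.158 to 0.327) in type 1 dendritic-like cells. In the last class 1 isotype control cell held 41 of the 67 Oasl1 UMIs. Without the richest 1% of its cells the Oasl1 log2 ratio went from -1.66 to 0.01, and that of Oas3 from -0.11 to 0.08. Ifi44 gave almost no UMIs in any class.

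Upstream of the members, the interferon genes themselves were barely found. Of 20 ligand genes 17, the alpha family among them, had no UMI in either library, Ifnk had 8 and 3 UMIs and Ifnz 5 and 0. Ifnb1 had 23 UMIs from 16 isotype control cells, at most 4 in a cell. In anti-Gr-1 it had 52 UMIs from 16 cells, of which 18 lay in 1 cell. In macrophage-like cells Ifnb1 had 7 UMIs in 5 cells (1.35 CPM, 0.544 to 2.79) and 20 UMIs in 5 cells (5.97 CPM, 3.64 to 9.21), with 11 of the 20 in 1 cell. No cell met the gate for plasmacytoid dendritic cells, a main source of interferon alpha, in either library. That gate asked for 4 of 6 markers, and 10 isotype control and 6 anti-Gr-1 cells had 3 of the 6. Siglech, among these markers, had 348 and 220 UMIs, so such cells may be present below the gate. Both receptor chains were measured in macrophage-like cells, Ifnar1 at 93.4 and 95.4 CPM and Ifnar2 at 156 and 139 CPM, neither past 1.5-fold. Among 4 inhibitors, Socs1, which blocks the receptor's kinases, differed in macrophage-like cells, at 18.6 and 5.07 CPM (96 and 17 UMIs). Socs3 was lower in type 1 dendritic-like cells, at 45.6 and 21.5 CPM.

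Of 13 genes better known for interferon gamma, those measured in each class were counted at 1.5-fold beside all measured genes. In type 1 dendritic-like cells 2 of 11 measured were lower (2.17% of all measured genes) and 0 higher, and in regulatory T-like cells 2 of 11 were higher (1.47%) and 0 lower. Macrophage-like cells had 1 of 12 higher (0.776% of all measured genes) and 2 lower (2.38%). Gamma-delta type 17 T-like cells had 1 of 12 higher (0.394%) and 1 lower (2.63%). Dendritic epidermal T-like cells had 0 of 11 higher (0.138%) and 2 lower (2.95%). Hlf Bmp2 Rora lymphoid cells had 0 of 10 higher (0.573%) and 2 lower (3.36%). The other 3 classes had none either way. Cxcl10, a chemokine that both kinds of interferon induce, had 62.3 and 5.23 CPM in type 1 dendritic-like cells and 116 and 177 CPM in macrophage-like cells. Genes known to respond to tissue digestion, such as Fos and Jun, had their lowest median log2 ratios in gamma-delta type 17 T-like (-0.39), Hlf Bmp2 Rora lymphoid (-0.35) and macrophage-like cells (-0.32). All measured genes had medians of -0.12, -0.13 and -0.05 there. The digestion genes had -0.21 in dendritic epidermal T-like and in regulatory T-like cells, and -0.16 in type 1 dendritic-like cells. They had -0.13 in the phagocytes, -0.04 in type 2 dendritic-like and 7.05e-05 in mast cell-like cells. Their part in the members' values was not tested.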

How the data were processed

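The authors deposited raw UMI counts for each gene in each barcode. Per the file headers these came from Cell Ranger 4.0.0, and the submitters' processing notes name build mm10. How reads of close gene copies (Ifit3, Oas1a, Phf11d, Trim30a and Ifi27l2a have relatives) were assigned is not given in the sources used here.

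Barcodes needed 200 genes, 500 UMIs and a mitochondrial share below 10%. Scrublet, run on each library in scanpy 1.11.5, scored doublets. Its automatic threshold marked 5.57% (448) of anti-Gr-1 cells. In the isotype control it marked 0%, so the 3055 highest scores (0.8% per 1000 cells) were removed instead. Isotype control cells with UMIs of both sexes were still 7.38%, against 3.07% in anti-Gr-1.

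A cell joined a class when it had UMIs of a set number of that class's markers and did not meet a gate of another lineage. Lymphoid cells with several dendritic, macrophage or mast cell markers were also set aside. T cells with monocyte or neutrophil markers were not set aside, since those gates allowed at most 1 T cell marker UMI. UMIs were summed per class and library, and CPM given with exact Poisson intervals, ratios with exact conditional intervals and shares with Clopper-Pearson intervals (95%). The floor for a share of 0 was 3 counts. Since each group is a single library, nothing was tested. Levels of different genes are compared as 3′ UMI counts, which do not scale with transcript length. Classes with at least 100 cells in each library were compared; named are the 6 members with the highest level and the 5 with the largest and the 5 with the smallest ratio, and a few chosen after their values were seen. Members and lists were chosen with earlier results of these data known. The procedure was tested on simulated data.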

Additional observations from a re-analysis of the deposited data

Results flagged for a closer look

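Ratios of summed level, anti-Gr-1 over isotype control, had opposite directions in different classes, and the difference between classes was not tested. They were 1.36 in Retnla Lpl Fn1 phagocytes, 1.29 in regulatory T-like, 1.15 in macrophage-like and 1.03 in type 2 dendritic-like cells. They were 0.621 in type 1 dendritic-like, 0.859 in Hlf Bmp2 Rora lymphoid, 0.931 in gamma-delta type 17 T-like and 0.936 in dendritic epidermal T-like cells. In mast cell-like cells the ratio was 0.750 in cells called female and 1.26 in cells called male, also untested, from 53 and 200 anti-Gr-1 cells.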

How the results depend on the processing

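Of 116 alternative values, 83 moved by less than their counting error, 27 moved further and 6 were counted as changed in direction. Among the 27, only mast cell-like cells, whose interval included 1, crossed 1, in female cells. Among the 83, the mast cell-like ratio crossed 1 with doublets kept (0.999). The median log2 ratio of type 2 dendritic-like cells crossed 0 without the richest 1% (0.0009). The pseudocount of 1 CPM, the minimum of 50 UMIs or of 1 UMI per gene and cells with at least 2000 UMIs moved none. The 6 counted as changed in direction were in 2 classes near a ratio of 1. Type 2 dendritic-like cells had 0.846 after thinning to 1000 UMIs before gating (182 and 70 cells, 123 and 40 member UMIs), 0.995 with 1 more marker in the gate and 0.97 without the member with the most UMIs. Dendritic epidermal T-like cells had 1.08 in male cells, 1.05 with 1 more marker and 1.01 without the 1% richest cells, an alternative chosen after seeing the data, as was the gate without Ly6c2 and Plac8 (5342 CPM in isotype control classical monocyte-like cells).

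Thinning gave 1.10 in macrophage-like cells (776 and 355 member UMIs) and 1.20 in Retnla Lpl Fn1 phagocytes (586 and 258). It gave 0.658 in type 1 dendritic-like cells (30 and 24 cells, 38 and 20 UMIs) and 0.680 in Hlf Bmp2 Rora lymphoid cells (76 and 31 UMIs). The thinned ratios of type 1 dendritic-like and Hlf Bmp2 Rora lymphoid cells rest on few counts. Without the member with the most UMIs the ratio was 1.07 in macrophage-like cells, 1.27 in the phagocytes, 0.836 in dendritic epidermal T-like, 0.877 in gamma-delta type 17 T-like and 1.06 in regulatory T-like cells. Female cells alone gave 1.004 in type 2 dendritic-like, 0.478 in type 1 dendritic-like, 0.992 in dendritic epidermal T-like, 0.833 in gamma-delta type 17 T-like, 1.58 in regulatory T-like and 0.750 in mast cell-like cells. Male cells alone gave 1.28 in the phagocytes, 0.717 in type 1 dendritic-like, 1.48 in regulatory T-like and 1.26 in mast cell-like cells. With each cell given the same weight, type 2 and type 1 dendritic-like cells had 1.07 and 0.689; with doublets kept, type 2 dendritic-like cells had 1.01; with 1 more marker, the phagocytes had 1.17. Without the 1% richest cells the ratio was 0.867 in type 1 dendritic-like and 1.39 in regulatory T-like cells, and the median log2 ratio of type 1 dendritic-like cells was -0.18. The cause of these shifts was not tested. Regulatory T-like cells kept too few cells after thinning (28 and 9) to give a value, and the 3-marker gate of Hlf Bmp2 Rora lymphoid cells could take no further marker. No paired analysis was possible because each group is 1 library.

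With 1 pool per group, treatment, library, sex share, depth and residual doublets cannot be told apart.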
